A study of Mus musculus with 4 samples.

Results

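The genes described here encode 9 proteins of the synaptic vesicle and of its fusion with the membrane: Snap25, Stx1a, Vamp2, Syt1, Cplx2, Syp, Sv2a, Syn1 and Rab3a. They were chosen by symbol for their known function and not by their values, and all 9 were found among the 23334 gene rows of the deposited tables. The cells came from C57BL/6 mice with the Vegfr3::YFP reporter, in which cells with an active Vegfr3 gene (symbol Flt4), the VEGF-C receptor, carry yellow fluorescent protein. They were sorted by fluorescence from 2 groups of 16 mice, kept in culture for 18 h, either plain or with 50 ng/ml of VEGF-C, and pooled within each condition before RNA sequencing. Each of the 4 groups has 1 library: untreated YFP+, treated YFP+ (with VEGF-C), untreated YFP- and treated YFP-. The labels call YFP+ material neural stem cells and YFP- material neurons, both originating from the subgranular zone, the neurogenic layer of the dentate gyrus. All 4 libraries share the reporter, the strain and the time in culture. With 1 library a group there is no replicate spread and no test, and every difference below is between individual libraries.

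Neurons store transmitter in synaptic vesicles and release it when calcium enters the nerve ending. Fusion is driven by the SNARE complex, in which VAMP2 on the vesicle coils together with syntaxin-1A and SNAP-25 on the plasma membrane. Synaptotagmin-1 senses calcium, complexins hold and then assist the SNARE complex, RAB3A guides vesicles to release sites, synapsins tether the vesicle pool, and synaptophysin and SV2A are proteins of the vesicle membrane itself. Mature neurons express this set together, so its levels bear on the question whether the libraries labelled neurons look neuronal.

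Levels are given as FPKM, fragments scaled by transcript length and by library size as set by the authors. The number of fragments behind a value was recovered from the deposited normalized counts, and intervals in parentheses are 95% exact Poisson intervals from these fragments, which cover counting error only. The libraries held 8390507 to 60326299 such fragments, and they split by how many genes they detected: 9669 genes stood above 0 in untreated YFP+ and 9556 in treated YFP-, against 13528 in treated YFP+ and 13132 in untreated YFP-. The first pair is called gene-poor and the second gene-rich below. The gene-poor libraries were also those with the fewest fragments, and the part of depth in this split was not tested. Of 12769 genes at 1 FPKM or more in at least 1 library, 27.1% and 27.7% were listed at 0 in the gene-poor libraries, and 6.34% and 7.50% in the gene-rich ones. Hnrnpa1, used by every cell, was listed at 0 in treated YFP- and stood at 299 to 692 FPKM elsewhere. A listed 0 is therefore not read here as absence of the RNA, and the cause of the listed zeros was not tested. Flt4 was listed at 0 in untreated YFP+ and stood at 2.01 FPKM in treated YFP+, at 0.0584 FPKM in untreated YFP- and at 0.348 FPKM in treated YFP-.

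The vesicle and release genes were present in libraries of both labels. Their summed level was 323 FPKM in untreated YFP+, 121 FPKM in treated YFP+, 140 FPKM in untreated YFP- and 131 FPKM in treated YFP-. Vamp2 and Cplx2 made up 96.8% of the sum in the first, and without this pair of genes the sums were 10.2, 76.9, 84.0 and 65.7 FPKM in the same order. All but Syt1 were at 1 FPKM or more in both gene-rich libraries, which carry opposite labels. In the gene-poor libraries, 4 of the 9 genes in YFP+ cells and 5 of the 9 in YFP- cells with VEGF-C reached 1 FPKM. Syt1 did not reach 1 FPKM in any library. In bulk libraries, fewer cells of a type and less RNA per cell cannot be told apart.

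**Figure D1:**
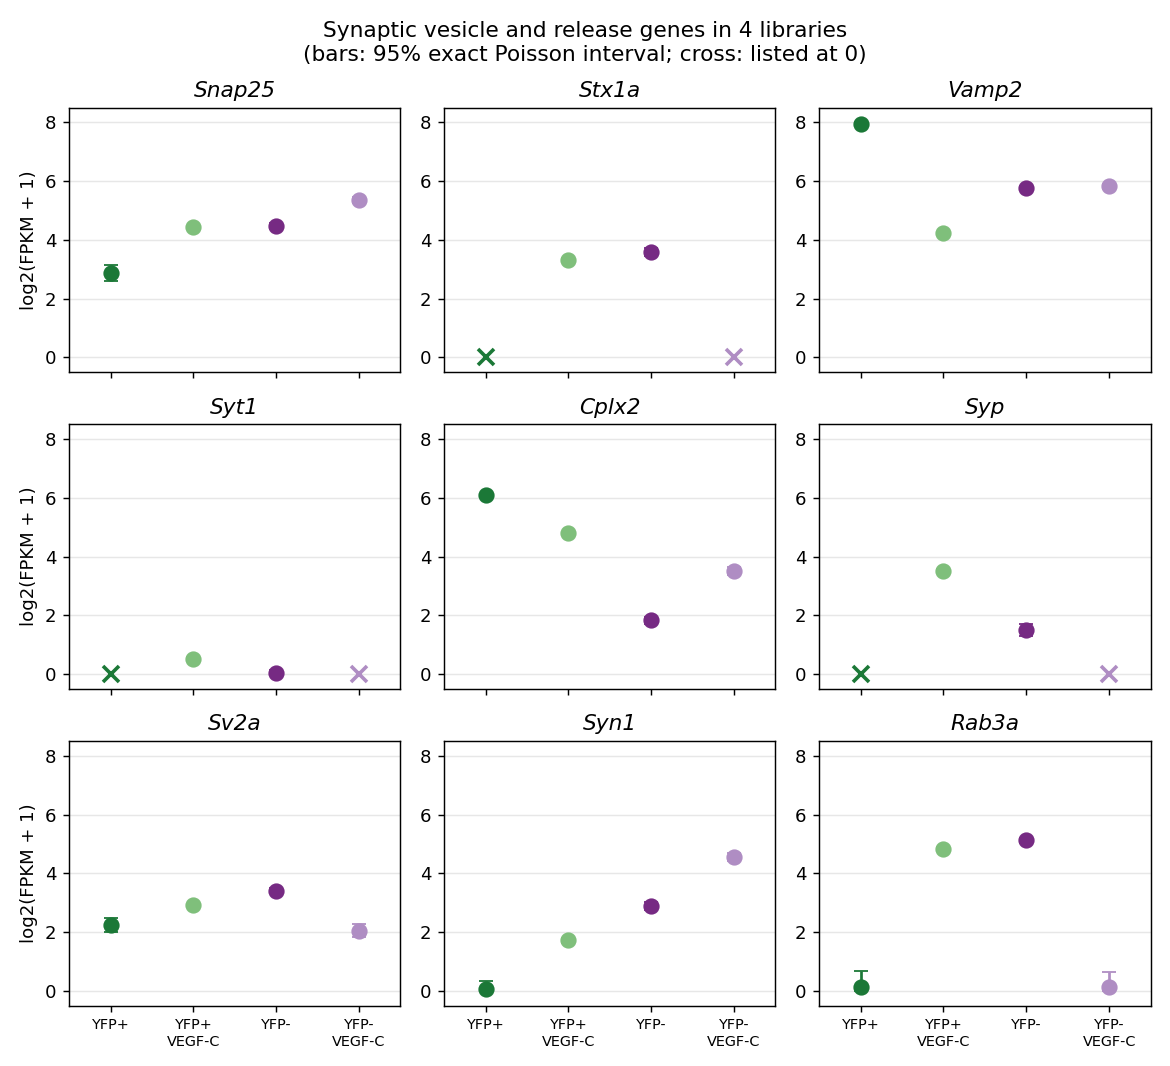
Level of each gene as log2(FPKM + 1), 1 panel per gene and 1 point per library, with 95% exact Poisson intervals as bars and a cross where the gene was listed at 0. Stx1a, Syp and Rab3a stand high in treated YFP+ and untreated YFP-, and are listed at 0 or rest on 1 fragment in the others. Cplx2 is highest in YFP+ and Syn1 in YFP- libraries.

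In the libraries labelled neurons, the markers of oligodendrocytes, the myelin-forming cells, had the highest summed level of the 6 lists. Summed over 12 oligodendrocyte markers, the level was 8110 FPKM in untreated YFP- and 10150 FPKM in treated YFP-, against 503 and 500 FPKM in the YFP+ libraries. All 12 were at 1 FPKM or more in both YFP- libraries. The 12 microglia markers summed to 430 and 1763 FPKM in YFP- and to 80.6 and 13.8 FPKM in YFP+ cells, without and with VEGF-C. Fcer1g made up 52.7% of the sum in treated YFP- and 98.7% in untreated YFP+. Of 11 measured in YFP- cells, 6 were higher with VEGF-C and 3 lower, beside 25.3% and 45.3% of all genes. The lower ones, C1qa, C1qb and C1qc, went from 14.5, 61.2 and 19.8 FPKM to 0.437 FPKM for C1qb and a listed 0 for the others. P2ry12 was listed at 0 in all 4 libraries. The 25 neuron markers summed to 513 and 493 FPKM in YFP- and to 1350 and 1149 FPKM in YFP+ cells, but single markers were mixed. Without VEGF-C 10 of 22 measured were higher in YFP+ cells and 6 lower, beside 30.1% and 46.7% of all genes. With VEGF-C 12 of 23 were higher and 4 lower, beside 47.0% and 27.6% of all genes. In untreated YFP+ the sum was led by Uchl1, Rtn1 and Gap43, at 346, 291 and 252 FPKM. Several neuron markers were present in the YFP- libraries. Eno2, the neuronal enolase, was at 43.2 and 41.0 FPKM there (0.0572 and 16.7 FPKM in YFP+). The RNA-binding protein gene Elavl3 was at 27.3 and 31.1 FPKM (4.33 and 24.7 FPKM in YFP+). Gad1, which makes GABA, was at 6.47 and 1.24 FPKM (listed at 0 and 1.28 FPKM in YFP+). Others were at or near 0: the nuclear protein gene Rbfox3 was at 0.150 and 0.231 FPKM (0.397 and 5.46 FPKM in YFP+), and the kinase gene Camk2a at 0.0395 FPKM or listed at 0 (3.86 and 0.521 FPKM in YFP+). Calb1, a calcium buffer of granule neurons, was listed at 0 in all libraries but treated YFP+, where it had 0.0393 FPKM. Tubb3, the neuronal tubulin, was at 24.2 and 0.168 FPKM in YFP- and at 166 and 242 FPKM in YFP+ cells. The 12 astrocyte markers summed to 1603 and 1263 FPKM in YFP+ and to 69.4 and 50.8 FPKM in YFP- cells. Glul, at 50.6 and 48.7 FPKM, made up 72.9% and 95.9% of the YFP- sums. The sums of 8 oligodendrocyte precursor markers were 306, 33.7, 171 and 562 FPKM in the order of the groups above. Sox10 alone made up 59.7% to 81.3% of each. Olig1 was higher in YFP- cells, with 36.8 FPKM untreated and 117 FPKM treated, against 0.211 FPKM in untreated and 9.34 FPKM in treated YFP+. Olig2 instead peaked in untreated YFP+ with 56.8 FPKM. It had 0.0993 FPKM in treated YFP+, 18.4 FPKM in untreated YFP- and 14.6 FPKM in treated YFP-. Cacng4 reached 2.80 FPKM in treated YFP+ and 2.07 FPKM in treated YFP-, but at most 0.0581 FPKM without VEGF-C. Pdgfra and Neu4 were listed at 0 in all 4 libraries, Gpr17 reached at most 0.0753 FPKM and Cspg4 at most 1.35 FPKM. The sums of 8 endothelial markers were 0.479, 5.64, 11.3 and 1.83 FPKM. The part of these other cell types in the levels of the vesicle genes was not tested.

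**Figure D2:**
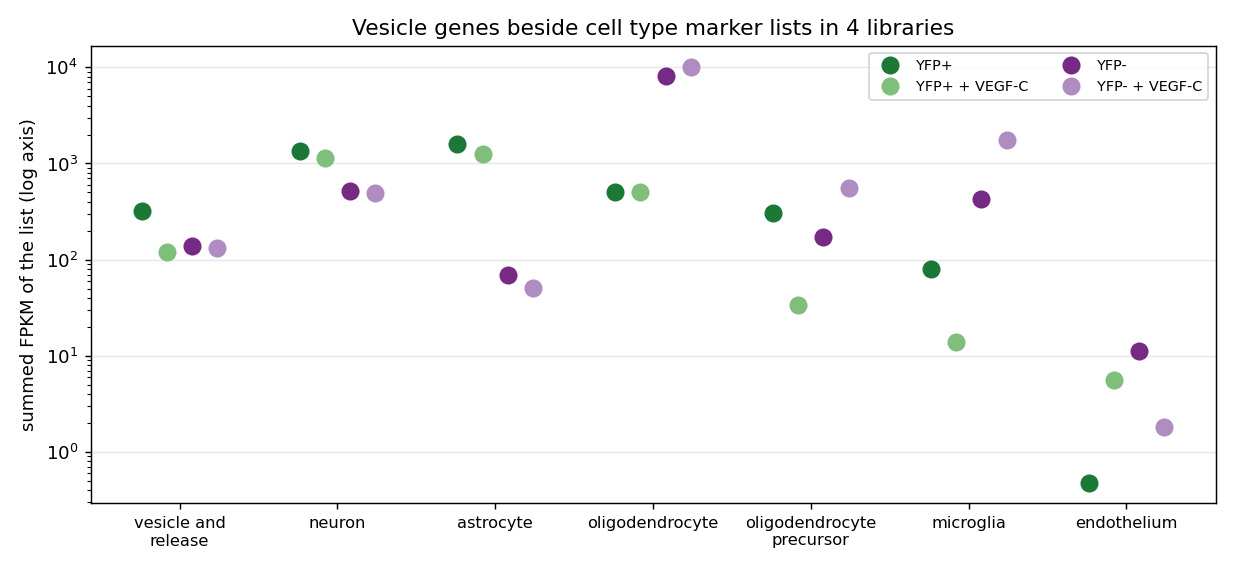
Summed FPKM, on a log axis, of the 9 vesicle and release genes and of 6 cell type marker lists, 1 point per library. Vesicle genes lie between 121 and 323 FPKM in all 4 libraries, while oligodendrocyte markers reach 8110 and 10150 FPKM in the YFP- libraries and the sum of neuron markers is higher in the YFP+ ones.

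Across libraries, 3 of the genes shared a profile that split the libraries as the number of detected genes did, across both the sort and the treatment. Stx1a, Syp and Rab3a were at 1 FPKM or more in both gene-rich libraries. In both gene-poor ones Stx1a and Syp were listed at 0, and Rab3a rested on 1 fragment. Of the 8 vesicle and release genes at 1 FPKM or more in both gene-rich libraries, 37.5% had at most 1 recovered fragment in both gene-poor ones. The share was 9.32% of the 8616 such genes in the whole table. It was 2 of 33 in a wider list of vesicle genes, 2 of 19 in a list of broad exocytosis and 0 of 19 neuron markers. As the profile was defined from these same levels, the shares only describe it, and a difference between them was not tested. The opposite profile was found for 2 genes in the whole table and for 0 of the 9. Syn1 had another profile, with both YFP- levels above both YFP+ levels. Snap25 ranked the libraries in the same order as Syn1, though its middle levels had overlapping counting intervals. Sequences are shown here upstream of the 3 genes with the shared profile and of Syn1, 1 of those without it. Snap25 had no promoter window, and a link between the letters and the profiles was not tested. They are the parts of RefSeq promoter windows (GRCm38.p6, the build named mm10) that lie before both the RefSeq and the GENCODE start, each read 5′ to 3′ on the gene's strand. Capitals mark GGGCGG, the GC box of Sp1 factors, on either strand, TGACGTCA, the cyclic AMP response element, and TTCAGCACC, the left part of RE1, the element bound by the repressor REST that holds neuronal genes silent in other cells.
Stx1a: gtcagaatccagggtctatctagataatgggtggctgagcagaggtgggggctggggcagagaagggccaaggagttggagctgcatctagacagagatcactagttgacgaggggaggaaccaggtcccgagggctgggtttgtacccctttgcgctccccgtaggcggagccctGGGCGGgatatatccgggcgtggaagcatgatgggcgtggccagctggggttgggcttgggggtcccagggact
Rab3a: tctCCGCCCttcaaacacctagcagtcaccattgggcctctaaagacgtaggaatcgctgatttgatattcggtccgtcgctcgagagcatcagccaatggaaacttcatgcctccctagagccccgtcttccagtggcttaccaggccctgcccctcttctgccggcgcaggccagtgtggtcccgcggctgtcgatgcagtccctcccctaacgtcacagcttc
Syp: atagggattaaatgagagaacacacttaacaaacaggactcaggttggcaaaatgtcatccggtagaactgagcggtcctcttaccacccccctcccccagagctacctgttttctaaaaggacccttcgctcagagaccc
Syn1: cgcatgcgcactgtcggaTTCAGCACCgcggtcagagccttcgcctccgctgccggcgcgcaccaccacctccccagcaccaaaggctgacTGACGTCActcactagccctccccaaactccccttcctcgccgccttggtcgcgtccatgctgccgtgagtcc
They stand at chr5:135023232-135023481 (plus strand), chr8:70754453-70754678 (plus strand, the first of 2 windows), chrX:7638330-7638470 (plus strand) and chrX:20921005-20921168 (minus strand). Over whole windows, from 250 bases before to 50 after the RefSeq start and on both strands, the left part of RE1 was in 0.371% of 32851 windows. Among the 7 vesicle and release genes with a window, Syn1 alone held it, and it also held the cyclic AMP response element, which was in 1.79% of all windows. The GC box was in 35.7% of all windows and in 5 of the 9 windows of these genes, those of Rab3a, Stx1a, Sv2a, Syp and Syt1, and the right part of RE1, GGACAG, was in 22.2% of windows and in Syt1 alone. The motif letters were chosen with these sequences in view, and a match is a description of letters, not of a bound site.

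**Figure D3:**
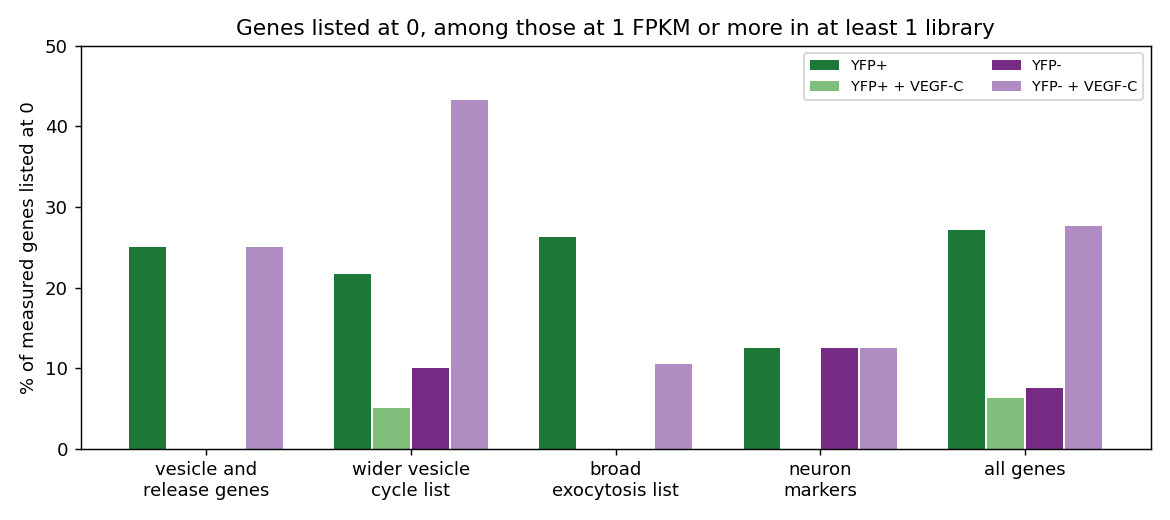
Share of genes listed at 0 in each library, in percent, among genes at 1 FPKM or more in at least 1 library, for the vesicle and release genes, 3 other lists and all genes. The vesicle and release genes show 25% in both gene-poor libraries and 0% in both gene-rich ones, beside 27.1%, 6.34%, 7.50% and 27.7% of all genes.

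The SNARE genes showed a different order of libraries each. Snap25 (chromosome 2, 136713453 to 136782428, ENSMUSG00000027273.13) encodes a plasma membrane SNARE. Its level was 6.28 FPKM in untreated YFP+ (5.03 to 7.75), 20.4 FPKM in treated YFP+ (19.7 to 21.2), 21.1 FPKM in untreated YFP- (19.7 to 22.6) and 39.9 FPKM in treated YFP- (36.7 to 43.2). The YFP- libraries were both higher than their YFP+ partners, and the middle values, of the gene-rich libraries, had overlapping counting intervals. Stx1a (chromosome 5, 135023482 to 135051100, ENSMUSG00000007207.10) encodes syntaxin-1A, its partner on that membrane. It was listed at 0 in untreated YFP+, at 8.97 FPKM in treated YFP+ (8.49 to 9.48), at 11.0 FPKM in untreated YFP- (10.0 to 12.1) and listed at 0 in treated YFP-. At the higher of these levels it would have given 148 and 159 fragments in the libraries where it was listed at 0. Vamp2 (chromosome 11, 69088490 to 69092384, ENSMUSG00000020894.16) encodes the vesicle SNARE. It stood at 246 FPKM in untreated YFP+ (238 to 254), 17.7 FPKM in treated YFP+ (17.0 to 18.4), 53.6 FPKM in untreated YFP- (51.4 to 55.9) and 55.4 FPKM in treated YFP- (51.7 to 59.3). It was the most abundant of the 9 genes in every library but the YFP+ one with VEGF-C, where Rab3a, Cplx2 and Snap25 were higher, and its YFP- levels were within counting error of each other. The 3 SNARE genes kept no fixed ratio, as Vamp2 was at its highest and Stx1a listed at 0 in the same library, untreated YFP+.

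The calcium sensor was nearly undetected. Syt1 (chromosome 10, 108497650 to 109010982, ENSMUSG00000035864.14) was listed at 0 in both gene-poor libraries, at 0.433 FPKM in treated YFP+, from 149 fragments (0.366 to 0.509), and at 0.0414 FPKM in untreated YFP-, from 4 fragments (0.0113 to 0.106). Cplx2 (chromosome 13, 54371349 to 54383917, ENSMUSG00000025867.8), a complexin that binds the assembled SNAREs, had its higher levels in the YFP+ libraries. It stood at 66.7 FPKM in untreated YFP+ (64.0 to 69.5), 26.8 FPKM in treated YFP+ (26.2 to 27.3), 2.55 FPKM in untreated YFP- (2.25 to 2.89) and 10.3 FPKM in treated YFP- (9.29 to 11.4). Both YFP+ levels lay above both YFP- ones.

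The genes of vesicle membrane proteins differed from each other. Syp (chromosome X, 7638471 to 7653256, ENSMUSG00000031144.15) encodes synaptophysin, the classical marker of the vesicle. It was listed at 0 in untreated YFP+, at 10.5 FPKM in treated YFP+ (10.0 to 11.0), at 1.82 FPKM in untreated YFP- (1.46 to 2.24) and listed at 0 in treated YFP-. GENCODE M21 places an antisense gene over 875 of its exonic bases, and reads of the 2 strands cannot be told apart in these unstranded data. Sv2a (chromosome 3, 96181151 to 96195521, ENSMUSG00000038486.9), a transporter-like glycoprotein of the vesicle, was at 3.76 FPKM in untreated YFP+ (3.06 to 4.58), 6.54 FPKM in treated YFP+ (6.25 to 6.85), 9.71 FPKM in untreated YFP- (9.03 to 10.4) and 3.16 FPKM in treated YFP- (2.54 to 3.88). It was the most even gene of those that reached 1 FPKM, with a range of 1.37 on the log2(FPKM + 1) scale, and its gene-poor levels had overlapping intervals.

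Synapsin and RAB3A act on the vesicle from the cytosol. Syn1 (chromosome X, 20860511 to 20921004, ENSMUSG00000037217.15) encodes synapsin I, which binds vesicles to actin. It had 0.0469 FPKM in untreated YFP+, from 1 fragment (0.00119 to 0.261), 2.31 FPKM in treated YFP+ (2.12 to 2.51), 6.44 FPKM in untreated YFP- (5.83 to 7.09) and 22.6 FPKM in treated YFP- (20.7 to 24.7). No intervals overlapped, and both YFP- levels lay above both YFP+ ones, in reverse of Cplx2. Rab3a (chromosome 8, 70754679 to 70758677, ENSMUSG00000031840.12) encodes the vesicle GTPase. It had 0.110 FPKM in untreated YFP+ (0.00278 to 0.612), 27.7 FPKM in treated YFP+ (26.7 to 28.8), 33.8 FPKM in untreated YFP- (31.7 to 36.1) and 0.102 FPKM in treated YFP- (0.00259 to 0.569), where the lower levels rest on 1 fragment each. Its range of 4.98 on the log2(FPKM + 1) scale was the widest of the 9 genes. In the annotation, the exons of Rab3a share 29 bases with Mpv17l2 and those of Syn1 9 bases with a gene within its span, each on the opposite strand.

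The comparison of YFP+ with YFP- cells without VEGF-C asked how cells with the reporter differ from those without. Genes at 1 FPKM or more in either library were counted as higher or lower when log2((FPKM + 1) / (FPKM + 1)) was at least 1 in size, a 2-fold difference on a scale that understates low genes. Of the 8 genes measured, Cplx2 and Vamp2 were higher in YFP+ cells, and 6 were lower, against 30.1% of all 11265 genes measured that were higher and 46.7% that were lower, 76.8% in either direction. Cplx2 was 26.1-fold higher (22.9 to 29.8) and Vamp2 4.59-fold higher (4.35 to 4.84). The lower ones were Snap25 at 0.297 of the YFP- level (0.236 to 0.371), Sv2a at 0.388 (0.312 to 0.478), Syn1 at 0.00728 (0.000184 to 0.0408), Rab3a at 0.00324 (8.2e-05 to 0.0181), and Stx1a and Syp, which were listed at 0 in YFP+ cells. The median log2 ratio was -1.55 for the 8 genes and -0.66 for all genes measured. After re-centring all ratios to a median of 0, 2 genes were higher and 3 lower, as Snap25, Sv2a and Syp came to lie within 2-fold.

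With VEGF-C more of the genes were higher than lower in YFP+ cells. The treated YFP+ library had 4 genes higher, Rab3a, Syp, Stx1a and Cplx2, and 2 lower, Syn1 and Vamp2, where 47.0% of all 11229 genes were higher and 27.6% lower, 74.6% in all. The median log2 ratio was 1.08 for the 8 genes and 0.69 for all genes. Cplx2 was 2.60-fold higher in YFP+ cells (2.34 to 2.89) and Rab3a 271-fold (48.6 to 10719, from 1 fragment in YFP- cells), while Stx1a and Syp were listed at 0 in YFP- cells. Syn1 was at 0.102 of the YFP- level (0.0902 to 0.115) and Vamp2 at 0.319 (0.295 to 0.345). Of the 6 genes past 2-fold in both pairs, Cplx2 was higher in both, Syn1 lower in both, and Stx1a, Syp, Vamp2 and Rab3a were opposite, a share of 66.7% beside 44.1% of the 5411 genes of the table past 2-fold in both. Upper-quartile scaling left 5 higher and 1 lower, with Vamp2 at a log2 ratio of -0.97. Re-centring gave 3 higher and 3 lower, with Cplx2 at a log2 ratio of 0.60 and Snap25 at -1.62.

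**Figure D4:**
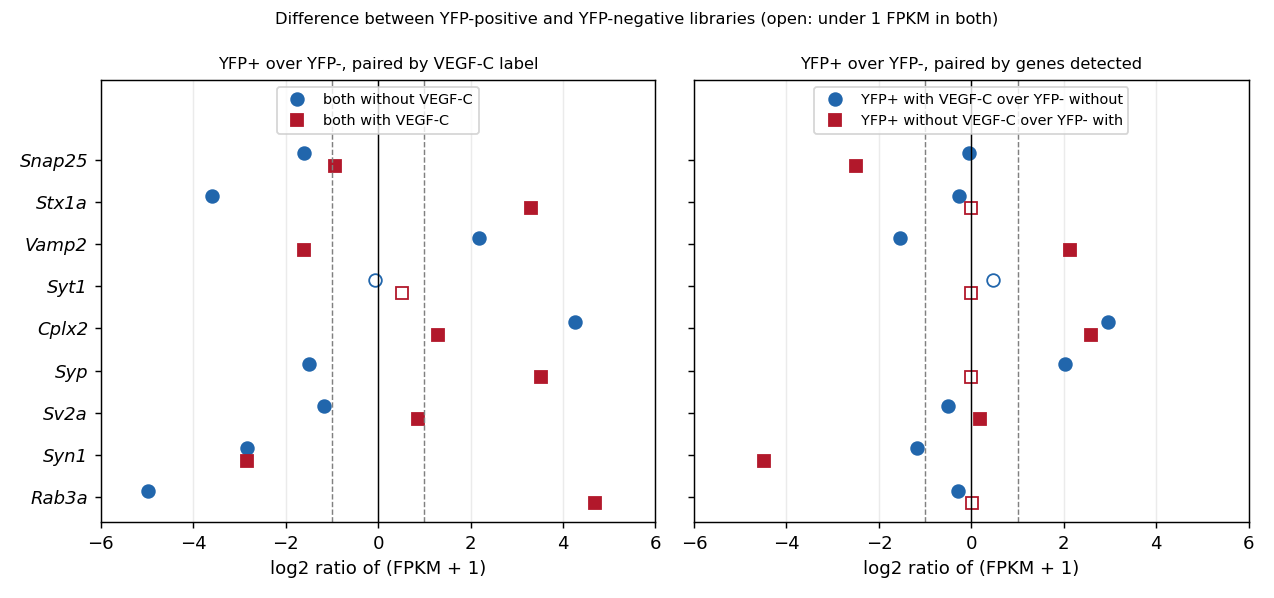
Log2 ratio of (FPKM + 1) of YFP+ over YFP- libraries for each gene, left for libraries with the same VEGF-C label and right for libraries alike in the number of genes detected, with dashed lines at 2-fold and open symbols for genes under 1 FPKM in both. On the left Rab3a stands at -4.97 and 4.70, and on the right at -0.28 in the gene-rich pair and under 1 FPKM in the gene-poor pair.

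As each of these pairs joins a gene-rich with a gene-poor library, the YFP+ and YFP- libraries were also set side by side within the gene-rich and within the gene-poor pair, a choice made after the values were seen. In these pairs the VEGF-C label differs as well as the sort. In the gene-rich pair, 2 of the 8 genes measured were higher in YFP+ cells and 2 lower, where 26.8% of all genes were higher and 25.8% lower, 52.5% in all. Cplx2 was 10.5-fold higher (9.26 to 11.9) and Syp 5.77-fold higher (4.66 to 7.22), and Vamp2 was at 0.330 (0.312 to 0.349) and Syn1 at 0.359 (0.315 to 0.409) of the YFP- level. Snap25 had a ratio of 0.967 (0.897 to 1.04), Rab3a of 0.819 (0.759 to 0.884), Stx1a of 0.816 (0.732 to 0.911) and Sv2a of 0.674 (0.619 to 0.734), all within 2-fold. In the gene-poor pair 5 genes were measured, of which Cplx2 and Vamp2 were higher and Snap25 and Syn1 lower, where 39.7% of all genes were higher and 37.6% lower, 77.3% in all. Across all 4 ways of pairing, Cplx2 was past 2-fold higher and Syn1 past 2-fold lower in YFP+ cells, while Vamp2 was past 2-fold higher with the untreated and past 2-fold lower with the treated YFP+ library, against either YFP- library. Median ratios of all genes were 0.05 and 0.08 on the log2 scale in these pairs, closer to 0 than in the pairs with equal VEGF-C label.

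VEGF-C was compared with no VEGF-C in each population to ask how cells respond to the ligand of Flt4. In YFP+ cells 5 of 8 genes measured were higher with VEGF-C, Rab3a, Syp, Stx1a, Syn1 and Snap25, and 2 were lower, Vamp2 and Cplx2, where 45.5% of 11040 genes were higher and 26.3% lower, 71.7% in all. Vamp2 was at 0.0718 of the level without VEGF-C (0.0683 to 0.0756), Cplx2 at 0.401 (0.383 to 0.420) and Snap25 3.25-fold higher (2.63 to 4.07). Re-centring gave 4 higher and 2 lower and upper-quartile scaling 6 higher and 1 lower. In YFP- cells 2 were higher with VEGF-C, Syn1 and Cplx2, and 4 lower, Rab3a, Stx1a, Syp and Sv2a, where 25.3% of 10968 genes were higher and 45.3% lower, 70.7% in all. Syn1 was 3.52-fold higher (3.08 to 4.01), Cplx2 4.03-fold higher (3.43 to 4.75), and Sv2a at 0.325 (0.258 to 0.405). Re-centring gave 3 higher and 2 lower. These comparisons share libraries with those between the populations, so their values are not independent of them. VEGF-C is joined to the gene-rich, deeper library in YFP+ and to the gene-poor, shallower library in YFP- cells. The treatment, the number of genes detected and the number of fragments therefore cannot be told apart.

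A wider list of 81 other genes of the vesicle cycle followed the direction of all genes. Without VEGF-C 11 of 47 measured genes were higher in YFP+ cells and 22 lower (median log2 ratio -0.60), and with VEGF-C 30 of 51 were higher and 12 lower (median 1.26), beside medians of -0.66 and 0.69 for all genes. Re-centring gave 15 higher and 18 lower, and 19 higher and 14 lower. Of 21 past 2-fold in both pairs, 6 were higher in both, 5 lower in both and 10 opposite, 47.6% beside 44.1% of all genes. Those higher in both included Rims2, an active zone scaffold, at 56.6 against 1.27 FPKM without VEGF-C, and at 1.24 FPKM against a listed 0 with it. They also included Sv2b, a relative of Sv2a, at 12.6 and 2.71 FPKM in YFP+ libraries and listed at 0 in both YFP- ones, and Syngr3, a vesicle membrane protein, at 83.6 against 13.9 FPKM, and at 18.5 FPKM against a listed 0 with VEGF-C. Those lower in both included the vesicle SNARE Vamp1, at 0.876 against 7.93 FPKM and 0.191 against 17.3 FPKM, and Synj1, a phosphatase of vesicle recycling, at 0.0825 against 11.7 FPKM and 3.41 against 17.4 FPKM.

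The transporters that fill vesicles with glutamate or GABA reached at most 3.75 FPKM, the level of the glutamate transporter Slc17a8 in treated YFP+, and it was at 0.329 to 0.729 FPKM elsewhere. Slc17a7, the glutamate transporter of granule and pyramidal neurons, reached at most 0.00478 FPKM, and Slc32a1, the transporter for GABA and glycine, at most 0.0359 FPKM. Slc17a6, another glutamate transporter, stood at 0.0340, 0.991 and 3.17 FPKM in the first 3 libraries in the order of the groups above and was listed at 0 in the last. The monoamine transporter Slc18a2 was at 3.54 FPKM in treated YFP+ and 8.19 FPKM in untreated YFP-, and listed at 0 in both gene-poor libraries. The proton pump subunit Atp6v0a1, which also serves lysosomes, was the highest of this group at 1.0, 14.0, 30.8 and 22.7 FPKM. Active zone genes differed from each other. Erc1, a scaffold also used outside of neurons, was at 23.2, 19.6, 2.58 and 9.41 FPKM, and Cask, a scaffold kinase, at 13.9 and 10.2 FPKM in the gene-rich libraries and at most 0.195 FPKM in the others. Bsn, a large scaffold of the active zone, reached at most 0.472 FPKM, and Rims1, Rims4 and Rimbp2 were listed at 0 in all 4 libraries. Pclo was at most 0.680 FPKM except in treated YFP-, at 6.64 FPKM.

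Relatives of the 9 genes that are used outside of synapses were also measured. Among synaptotagmins Syt4, a form of dense-core and Golgi vesicles that does not sense calcium as Syt1 does, was at 45.2 and 32.4 FPKM in YFP+ and at 214 and 432 FPKM in YFP- libraries, without and with VEGF-C. Syt11, which is likewise not a fast calcium sensor, had 59.8 and 59.1 FPKM in YFP+ and 114 and 178 FPKM in YFP- libraries. Both were higher in YFP- libraries while Syt1 was at most 0.0414 FPKM there. Snap23, the SNAP-25 relative of non-neuronal exocytosis, was at 54.6 and 13.0 FPKM in YFP+ and 27.4 and 2.85 FPKM in YFP- libraries, and the order of its 4 levels was not that of Snap25. Stx4a, a syntaxin of constitutive secretion, was at 38.4, 16.7, 14.2 and 39.8 FPKM and so stood well above 0 where Stx1a was listed at 0. Vamp3, the broadly used counterpart of Vamp2, was at 8.61 and 37.2 FPKM in YFP+ and 29.0 and 157 FPKM in YFP- libraries, and Vamp8, a SNARE of late endosomes and secretory granules, at 119, 36.9, 32.5 and 119 FPKM. Sypl, a widely expressed relative of synaptophysin, was at 24.4 to 62.9 FPKM in 3 libraries and listed at 0 in untreated YFP+. Over 21 genes of broad exocytosis the sums were 464, 457, 555 and 897 FPKM, each above that of the 9 vesicle and release genes, a shorter list. Sums over lists of unlike length do not compare levels per gene. Without VEGF-C 4 of 19 measured were higher in YFP+ cells and 9 lower (median -0.92), and with VEGF-C 6 were higher and 7 lower (median 0.05). Over all genes measured the shares were 30.1% higher and 46.7% lower (median -0.66), and 47.0% higher and 27.6% lower (median 0.69) with VEGF-C.

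The nearer relatives in neurons had orders of libraries of their own. Cplx1 was at 5.51 FPKM in treated YFP+ and 6.08 FPKM in untreated YFP-, at 0.348 FPKM in untreated YFP+ and listed at 0 in the last, a different order from Cplx2. Syn2 was at 12.2 FPKM in untreated YFP+, where Syn1 rests on 1 fragment, and listed at 0 in treated YFP-, where Syn1 was highest. Syn3 reached 1.06 FPKM in untreated YFP- alone. Rab3c, at 1.84 and 2.06 FPKM in the gene-rich libraries and at most 0.0790 FPKM in the others, was likewise higher in the gene-rich libraries, as Rab3a was, and Rab3d was at 5.19, 2.93 and 4.41 FPKM and listed at 0 in treated YFP-.

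**Figure D5:**
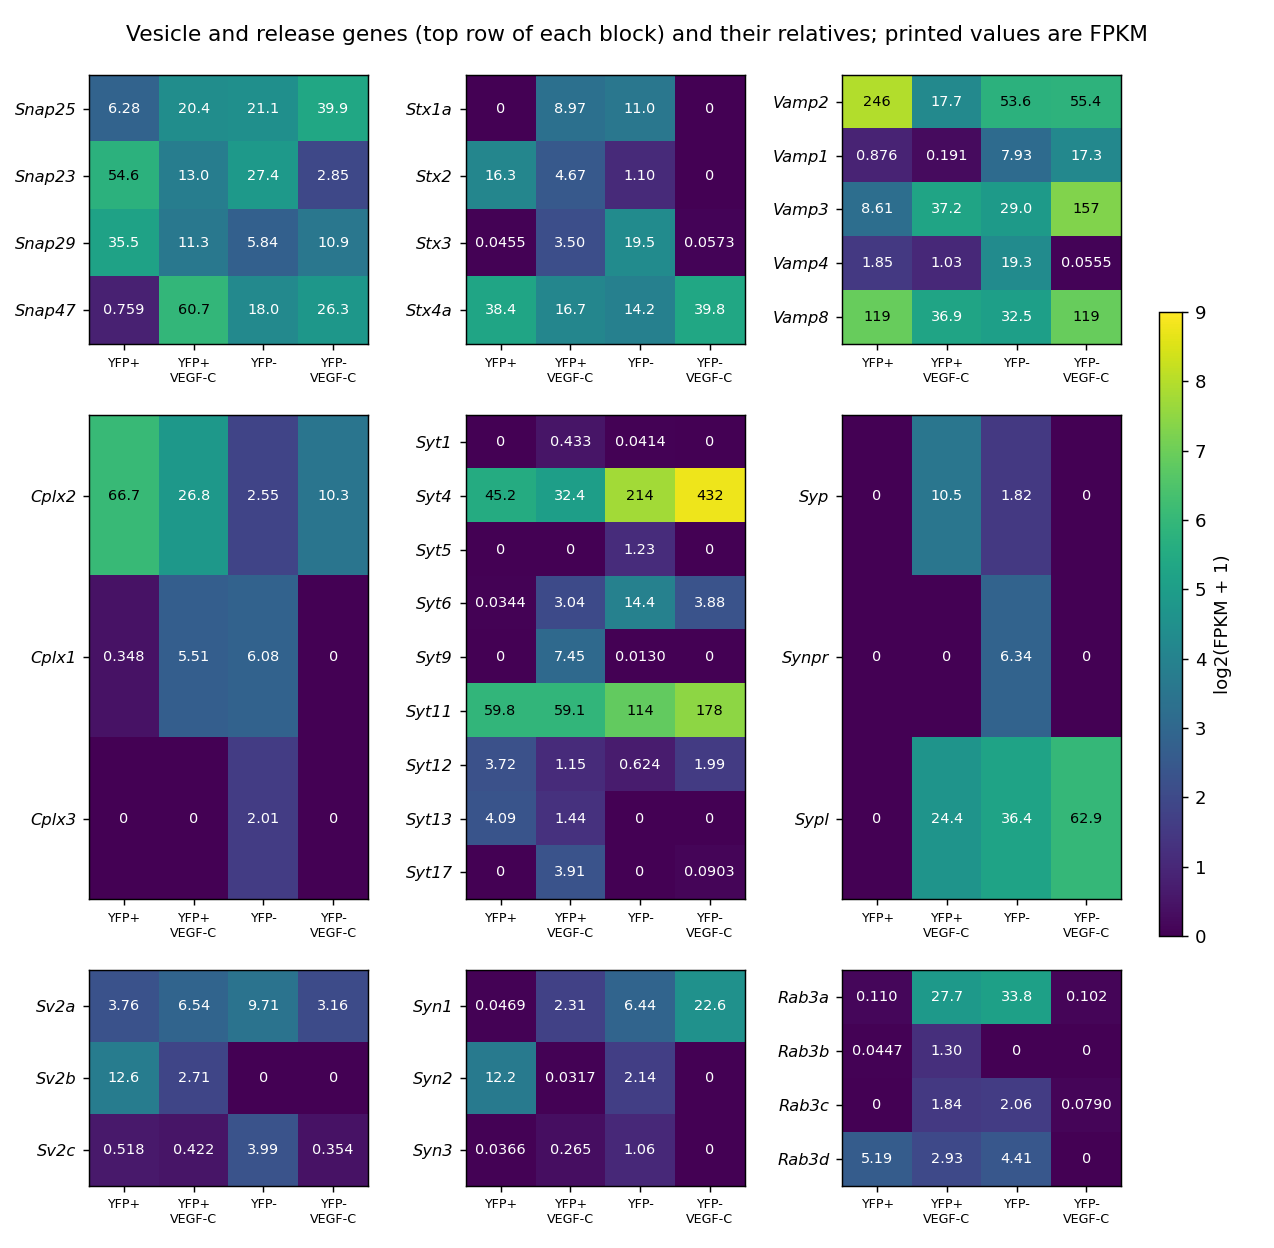
FPKM of the 9 genes, each in the first line of its block, and of some of their relatives, with colour for log2(FPKM + 1) and 1 column per library. Stx1a, Syp and Rab3a exceed 1 FPKM in the middle columns alone, while Syt4 and Syt11 are at 32.4 FPKM or more in every column and reach 432 and 178 FPKM in treated YFP-.

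Likeness to other genes was measured as the largest difference in log2(FPKM + 1) over the 4 libraries, where a small value means a similar level in each. For Rab3a the nearest genes of the table were Uqcc, at a largest difference of 0.072, and Snora7a at 0.15, and for Stx1a they were Snora34 at 0.12 and Golga3 at 0.13. Snap25 was most like Acsl3 (0.19) and Jam3 (0.25), Syn1 most like Vwa5a (0.19) and Cbx7 (0.21), Syp most like Tbc1d10a (0.13) and Gm4984 (0.16), and Sv2a most like Spata5 (0.23) and Krt10 (0.45). Vamp2 had no gene as near, with Jtb at 0.55 and Napa at 0.62. Napa encodes alpha-SNAP, the adaptor that helps to take used SNARE complexes apart, and was at 226 FPKM in untreated YFP+, 27.8 FPKM in treated YFP+, 82.9 FPKM in untreated YFP- and 81.7 FPKM in treated YFP-. Cplx2 was likewise apart, with Pmepa1 at 0.57 and Kptn at 0.60. The nearest genes of Syt1 were Ovgp1 and Ccdc63, each at 0.030, a likeness among genes near 0. The 9 genes themselves were left out of the search.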

How the data were processed

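Amplified cDNA (SMARTer Ultra Low kit) was sequenced as paired reads of 75 bp, per the labels' protocols and the series' design text. Per that text and the submitters' processing notes, reads were mapped to mm10 with TopHat 2.0.9 (Bowtie 2.1.0, SAMtools 0.1.18) as unstranded and quantified with Cuffdiff of Cufflinks 2.1.1. No source used here gives the annotation version. The authors deposited a table of FPKM and a table of normalized counts, a signal per gene whose values are not whole. Within a library, 99.0% to 99.6% of values (below 2000 steps) were multiples of 1 step to within 0.05, and dividing by that step gave fragments (a few low values are not multiples, so no count model was run). Of 23361 rows, 27 with symbols turned into dates were left out.

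Differences were log2((FPKM + 1) / (FPKM + 1)), called at 2-fold with at least 1 FPKM in either library. Intervals for a ratio are exact conditional binomial ones. Alternatives were other pseudocounts, filters and scalings, the normalized-count table and thinning to equal depth. The call was checked on simulated data. Some genes of the lists are counted but not reported here by name. Genes other than the 9 were named as the most extreme and the highest of each list, as relatives of the 9, or as the nearest by level; transporters, active zone genes and cell type markers were named after their values were seen. The genes and lists were chosen with earlier results of these data known. Positions are from GENCODE M21 (GRCm38, mm10). Python 3.11.15, pandas 2.3.3 and SciPy 1.17.1 were used.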

Additional observations from a re-analysis of the deposited data

Results flagged for a closer look

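The response to VEGF-C had opposite signs in the populations for 4 of the 9 genes, with a 2-fold difference or more each way. These were 4 of the 5 genes past 2-fold in both populations, beside 57.3% of the 4547 such genes in the whole table, and the medians of all genes were themselves 0.59 and -0.54. Each direction rests on 1 library against 1, so the difference was not tested. The log2 ratio with over without VEGF-C was 4.69 in YFP-positive and -4.98 in YFP-negative cells for Rab3a, 3.32 and -3.58 for Stx1a, and 3.52 and -1.50 for Syp. These 3 genes were at 1 FPKM or more in the gene-rich libraries, and were listed at 0 or rested on 1 fragment in the gene-poor ones. Cplx2 went the other way, at -1.29 in YFP-positive and 1.67 in YFP-negative cells. Under upper-quartile scaling Cplx2 in YFP-positive cells came to -0.64, and after re-centring Syp in YFP-negative cells came to -0.96, each within 2-fold, and with a pseudocount of 5 FPKM Syp in YFP-negative cells came to -0.45. Cplx2 was detected with 257 to 9602 fragments in all 4 libraries.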

How the results depend on the processing

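Of 266 log2 ratios of single genes recomputed under the alternatives, none with a main ratio of at least 2-fold changed sign, and of 217 such values 203 kept a 2-fold difference in the same direction. Restricting to a mean of at least 20 FPKM, which leaves Snap25, Vamp2 and Cplx2, gave 1 lower (YFP-positive against YFP-negative), 1 higher and 1 lower (the same with VEGF-C), 1 higher (VEGF-C in YFP-positive cells), and 1 higher and 0 lower (VEGF-C in YFP-negative cells). Re-centring gave 3 lower between the populations without VEGF-C and 2 lower for VEGF-C in YFP-negative cells. Upper-quartile scaling gave 1 lower between the populations with VEGF-C and 1 lower for VEGF-C in YFP-positive cells. A pseudocount of 5 FPKM gave 2 lower for VEGF-C in YFP-negative cells. Chosen after the data were seen, the gene-rich and the gene-poor pair each gave 2 lower in place of 6, and genes above 0 in all 4 libraries gave 2 higher between the populations with VEGF-C, 3 higher for VEGF-C in YFP-positive and 2 lower for VEGF-C in YFP-negative cells. The other 60 counts of the 9 genes moved by at most 1.5 times, those after thinning to equal depth among them. No paired analysis was possible because each group has 1 library. Leaving out a library leaves no comparison.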
